A study of Mus musculus with 6 samples.

Results

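Cytosolic ribosomal protein genes were followed on Illumina bead arrays of sorted mouse cells that form mineralised tissue. The members were every probe whose gene symbol in the platform annotation is that of a large subunit protein (Rpl), a small subunit protein (Rps), a stalk protein (Rplp0, Rplp1, Rplp2) or Rpsa, with S6 kinases and mitochondrial ribosomal proteins left out. This gave 77 of 25697 probes, for 60 of 16593 gene symbols: 45 probes of 34 large subunit genes, 28 probes of 23 small subunit genes and 4 probes of the 3 stalk genes. The rule reads symbols and no measured value. Rpl11, Rps27a and Rpl10l were not analysed here.

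The cells were GFP-positive cells of adult C57Bl6/J mice carrying OC-GFP, a reporter of osteocalcin expression that both groups share. Osteoblasts were sorted from digested calvaria, the flat bones of the skull, in 3 samples of 6 mice each, aged 6 weeks, 5 to 6 weeks and 6 to 7 weeks for replicates 1, 2 and 3. Cementoblasts, which form the mineralised cover of tooth roots, were sorted from digested periodontium, the tissue that holds the tooth, in 3 samples of 7, 10 and 6 mice, aged 6 to 7, 5 to 6 and 6 to 7 weeks. All pools held both sexes. An early fraction of the calvarial digest was discarded, a step that the labels do not give for the periodontium, and RNA was amplified before labelling. The reporter marks any cell with an active osteocalcin promoter, so it does not by itself part osteoblasts from cementoblasts.

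The cytosolic ribosome joins a large and a small subunit, each an assembly of ribosomal RNA with many proteins present in a single copy. Because subunits are built in fixed proportions, the mRNAs of these proteins are kept in proportion to each other in most cell types, and they rank among the most abundant of any cell. In mammals most of them start with a C followed by a run of pyrimidines, the terminal oligopyrimidine (TOP) start, through which growth signals by way of mTOR set how much of each mRNA is translated. Cells that secrete bone or cementum matrix depend on this machinery to make collagen.

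Values of single arrays are given in the order of replicates 1, 2 and 3. Brightness was uneven among osteoblast arrays, which had detection p-values under 0.05 at 8480, 13347 and 12922 probes, while the cementoblast arrays had them at 9791, 10059 and 10040. Osteoblast replicate 1 and cementoblast replicate 3 were the arrays with the fewest macrophage marker probes detected, 3 of 7 on both against 6 or 7 on the others. Of 15 probes for osteoblast marker genes (Bglap, Col1a1, Alpl and others), 14 or 15 were detected on the osteoblast arrays and 13, 12 and 15 on the cementoblast arrays. Of 12 probes for epithelial genes (Krt5, Krt14 and others), the cementoblast arrays detected 9, 8 and 0, and the osteoblast arrays 0, 2 and 0.

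Before the signals, the annotated starts of the genes are shown, since they are a feature that the symbol rule did not use. RefSeq promoter sequences (GRCm38.p6, 250 bases before to 50 after the annotated start) were matched by gene identifier for 51 of the 60 genes, with 62 starts. A C followed by at least 4 pyrimidines (C or T) on the transcribed strand stood exactly at the annotated start in 11 of 62 starts (17.7%), against 823 of 32851 starts of all genes (2.5%). When the motif was allowed to begin anywhere within 10 bases of the annotated start, 56.5% of the member starts and 30.7% of all starts held it. An annotated start can lie some bases from the true one, so a start without the motif says only that these letters are not at that place. The lines below give the 10 bases before and the 20 from the annotated start for 6 members with measured signal, and for Rps4x. The pyrimidine run is in capitals from the annotated start onward, and pyrimidines just before the start stay in lower case. Rps4x has no run at its start.
Rps6, chr4:86857348-86857377, minus strand: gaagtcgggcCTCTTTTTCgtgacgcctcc
Rpl38, chr11:114668570-114668599, plus strand: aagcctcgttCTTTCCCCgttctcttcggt
Rps27, chr3:90213629-90213658, minus strand: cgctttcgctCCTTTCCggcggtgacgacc
Rpl35, chr2:39005112-39005141, minus strand: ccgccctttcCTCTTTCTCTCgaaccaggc
Rps10, chr17:27635225-27635254, minus strand: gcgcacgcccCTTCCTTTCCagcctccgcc
Rpl28, chr7:4792955-4792984, plus strand: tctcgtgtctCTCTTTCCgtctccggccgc
Rps4x, chrX:102189372-102189401, minus strand: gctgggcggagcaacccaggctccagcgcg

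Ribosomal protein mRNA was measured on every array in most members. Of the 77 probes, 58 were detected on all 6 arrays, 4 on 3 to 5 arrays, 3 on 1 array and 12 on none. The 62 probes detected on at least 3 arrays, of 53 genes, were tested, as were 11198 probes of the whole array that met the same filter. The filter counts arrays without regard to group. All 7 genes without a tested probe, Rpl6, Rpl14, Rpl17, Rpl39l, Rplp2, Rps23 and Rpsa, gave signals near background, with Rpsa read by 2 probes of which 1 was detected on 1 array. Except for Rpl39l, a copy of Rpl39 known mainly from testis, these encode core parts of the ribosome. Rpl23, Rpl27a, Rpl37 (2 probes), Rpl4, Rplp0 and Rps19 each had a probe near background beside another that was detected on all 6 arrays, and a probe of Rpl37 read 81.4, 91.5 and 96.6 on the osteoblast arrays where its detected probe read 2451, 9302 and 11096. A probe at background is therefore a statement about that probe, and it says nothing on the level of its gene.

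The deposited signals of the members rose and fell together from array to array. The median signal over the 62 tested probes came to 563, 3092 and 5146 for the osteoblast arrays. For the cementoblast arrays it came to 816, 716 and 1337. Osteoblast replicate 1 lay below all cementoblast arrays and osteoblast replicates 2 and 3 above them, so the spread among osteoblast arrays was wider than the gap between the groups. The median over all kept probes moved the same way, though not every single probe did. Positions on an array are medians over probes, relative to each probe's own mean. On the log2 scale of the deposited signal, the members lay at -0.83, 1.01 and 1.58 on the osteoblast arrays, and all kept probes at -0.43, 0.47 and 1.04. The deposited signal includes background. With background corrected and no scaling, the members lay at -0.95, 1.10 and 1.70 on these arrays and all kept probes at -0.80, 0.97 and 1.74.

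**Figure D1:**
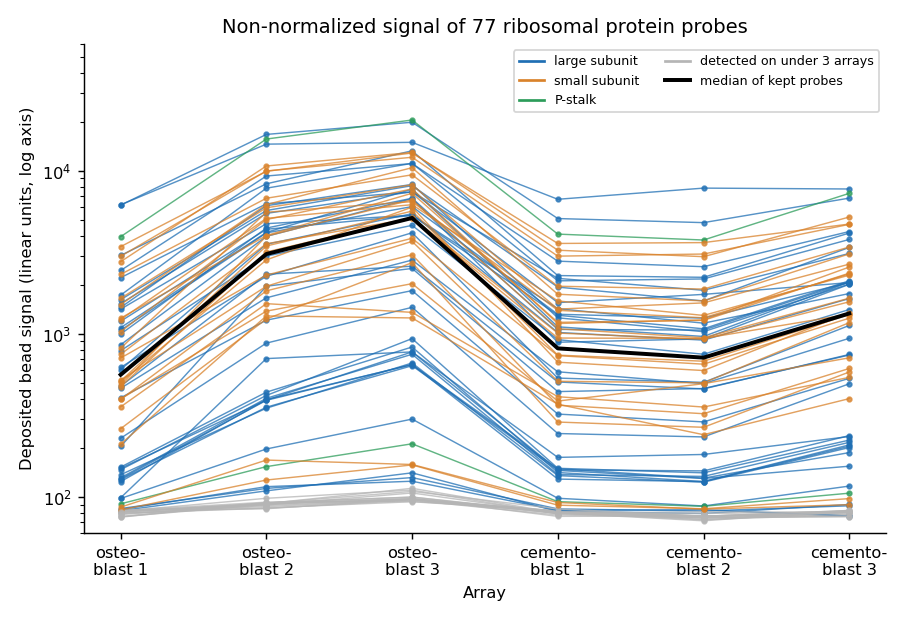
Deposited bead signal (linear units on a log axis) of the 77 ribosomal protein probes on the 6 arrays, 1 line per probe, coloured by subunit, with the 15 probes detected on fewer than 3 arrays in grey and the median of the 62 tested probes in black. The median ran from 563 on osteoblast replicate 1 to 5146 on osteoblast replicate 3, and from 716 to 1337 on the cementoblast arrays; the height of a line depends on the probe and does not rank genes.

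No ribosomal protein probe passed the test between cementoblasts and osteoblasts. With background correction and quantile normalization (limma, Benjamini-Hochberg adjustment over 11198 probes), 0 of 62 probes had an adjusted p under 0.05, against 33 of all probes (0.295%), 13 of them higher in cementoblasts (0.116%) and 20 lower (0.179%). With scaling to the 75th percentile 0 members passed, against 2 of all probes (0.0179%). At an unadjusted p under 0.05 there was 1 member, a probe of Rpl23, where 6.54% of all probes lay there; with scaling to the 75th percentile there was none, where 6.91% of all probes lay there. This count depended on the processing: in the submitters' values 18 of 62 members lay there, beside 757 of all 11198 probes, with no background correction 15 of 62, beside 715 of 11198, and with no detection filter 13 of 77, beside 1428 of 25697. In bulk samples, fewer cells of a type and less RNA per cell cannot be told apart. Without cementoblast replicate 3 the count over all probes was 196 and that of members still 0, with the smallest member p, again at Rpl23, at an adjusted 0.0826. With quantiles and all arrays, the 95% interval of the difference lay between -1 and 1 for 49 of 62 members and for 50.4% of all tested probes. These bounds are a 2-fold difference either way. The median standard error was 0.262 for members and 0.316 for all probes. With scaling to the 75th percentile the interval lay within these bounds for 41 of 62 members and for 33.7% of all tested probes. The median standard errors were then 0.311 and 0.345.

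The direction of the family depended on how the arrays were scaled. With quantile normalization 53 of 62 members and 46.8% of all probes lay above 0 (cementoblast higher), with a median log2 difference of 0.20 where the median of all probes was -0.02, but with scaling to the 75th percentile 26 members and 46.9% of all probes lay above 0 and the median was -0.02, with all probes at -0.05. In the submitters' own normalized values 54 lay above 0, with a median of 0.35 and that of all probes at -0.01. Scalings that shift each array by a constant move members and other probes alike, so the gap between the members' median and that of all probes was 0.02 under every such scaling, against 0.22 with quantiles and 0.36 in the submitters' values. With no scaling at all the medians were -1.18 for members and -1.20 for all probes, and with scaling to the array median -0.94 and -0.96. With the 75th percentile taken over the 6533 probes detected on all arrays they were 0.46 and 0.43, and 59 members and 81.7% of all probes lay above 0. Over quantile, submitters' and both 75th percentile scalings, 23 members lay above 0 each time, 3 (Rpl27a, Rpl10 and Rps27l) below 0 each time, and 36 changed sign. These percentile scalings differ by a constant per array, so a sign change between them is a shift shared by all probes.

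**Figure D2:**
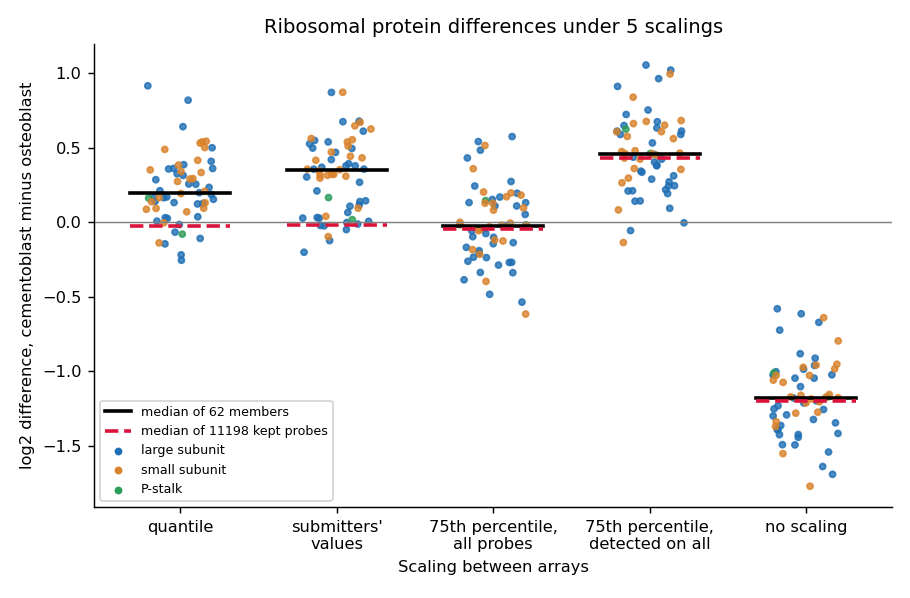
Log2 difference, cementoblast minus osteoblast, of the 62 tested members under 5 scalings (x axis), 1 point per probe coloured by subunit, with the median of the members in black and that of all 11198 tested probes dashed. The medians of members and all probes part by 0.22 with quantiles and 0.36 in the submitters' values, and by 0.02 under the 3 scalings that shift each array by a constant.

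The same dependence was seen on single arrays. With quantiles, the members lay at 0.05, -0.20 and -0.15 relative to each probe's mean in the osteoblast arrays, and at 0.13, 0.01 and 0.20 on the cementoblast arrays. The groups overlapped, since osteoblast replicate 1 lay above cementoblast replicate 2. With scaling to the 75th percentile the members lay at -0.11, 0.19 and 0.04 on the osteoblast arrays and at -0.14, -0.24 and 0.37 on the cementoblast arrays, so that cementoblast replicate 3 alone was the highest and the other cementoblast arrays the lowest. Groups that did not overlap were found in 16 of 62 members with quantiles, 14 of them with cementoblasts higher, where 10.9% of all probes did not overlap and 5.31% with cementoblasts higher. With scaling to the 75th percentile this fell to 1 of 62 members, where 8.27% of all probes did not overlap. That member, named after its values were seen, was a probe of Rps24 detected on 5 arrays, at signals of 83.5 to 157.5. Its difference was 0.54 with quantiles and 0.52 with scaling to the 75th percentile (limma adjusted p = 0.771 and 0.537). Every other member, those named below included, had overlapping groups at the 75th percentile.

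The share of an array's signal held by the members does not change with a constant scaling. Of the background-corrected signal, ribosomal protein probes held 8.23%, 6.55% and 5.85% in the osteoblast arrays and 10.06%, 9.50% and 9.16% in the cementoblast arrays. All 3 cementoblast arrays lay above all 3 osteoblast arrays, also without the 3 brightest members (Rpl41, a Rpl23 probe and Rplp1), at 7.27% to 7.88% against 4.92% to 6.24%. This separation was lost when the 50 brightest other probes, among them Bglap2, Col1a1 and Sparc, were left out of the total: the share was then 12.43%, 7.996% and 6.65% in osteoblasts and 12.29%, 11.67% and 11.55% in cementoblasts, with osteoblast replicate 1 the highest of all. Osteoblast marker probes held 14.07%, 3.50% and 1.97% of the corrected signal on the osteoblast arrays and 3.00%, 1.73% and 6.77% on the cementoblast arrays. The highest deposited signal of any probe was 28370, 29969 and 21672 on the osteoblast arrays. On osteoblast replicate 3 Bglap2 read 20419, Col1a1 20858, Rplp1 20513 and Rpl41 19877, each close to that array's highest. Whether the signal of the brightest probes was limited there, and with it the shares, was not tested. Neutrophil marker probes, 11 to 17 of 18 detected, held 0.04% to 0.71% in osteoblasts and 0.23% to 2.99% in cementoblasts, and epithelial probes reached 0.25% and 0.20% on cementoblast replicates 1 and 2; their part in the share was not tested. Of the deposited signal with its background, the members held 2.48%, 4.15% and 4.14% on the osteoblast arrays and 2.71%, 2.69% and 3.59% on the cementoblast arrays, with overlap of the groups. Over the probes detected on all arrays alone, the members held 5.47%, 6.22% and 5.74% of the deposited signal in osteoblasts and 6.51%, 6.24% and 6.96% in cementoblasts, and the groups did not overlap.

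**Figure D3:**
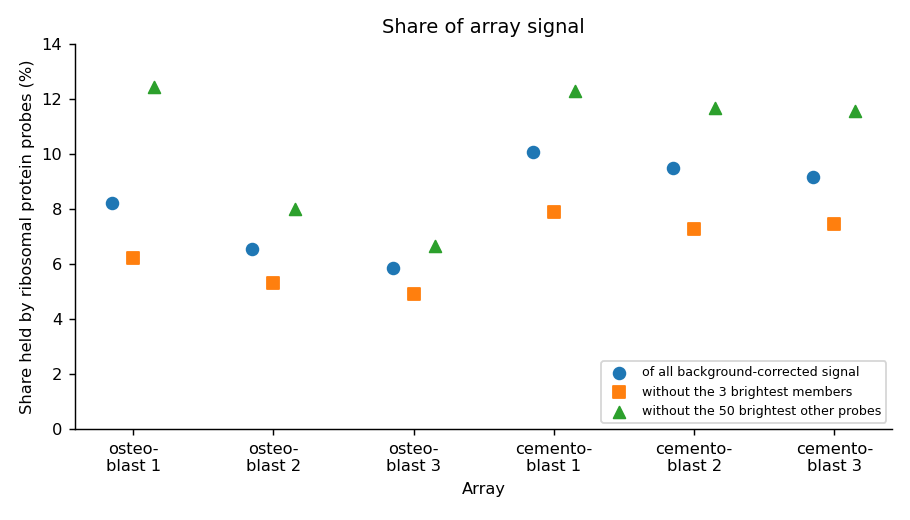
Share (%) of each array's background-corrected signal held by the 77 ribosomal protein probes, for all probes (circles), without the 3 brightest members (squares) and without the 50 brightest other probes (triangles). Circles and squares lie higher on all 3 cementoblast arrays, and the triangle of osteoblast replicate 1, at 12.43%, lies above all others.

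Large and small subunit probes lay close to each other in their medians. With quantiles the median difference was 0.18 over 36 large subunit probes, 30 of them above 0, and 0.28 over 24 small subunit probes, 22 above 0. With scaling to the 75th percentile these medians were -0.09 and -0.01. On no array did the medians of the subunits lie further apart than 0.06 with quantiles or 0.14 with scaling to the 75th percentile. Members detected on all arrays departed from the family by a median SD of 0.222 on the log2 scale over the 6 arrays, where all probes detected on all arrays departed from their own median by 0.328; the members are also brighter than most probes.

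Among large subunit members Rpl23, whose protein sits on the face that meets the small subunit and can bind the p53 regulator Mdm2, had the highest difference. Its brightest probe read 6198, 14590 and 14966 in the osteoblast arrays and 6699, 7843 and 7746 on the cementoblast arrays. In quantile values this was 13.21, 12.90 and 12.78 against 14.07, 14.21 and 13.37, and all cementoblast arrays lay above all osteoblast arrays. The log2 difference was 0.92 (SE 0.30, n = 3 per group; limma adjusted p = 0.540), or 0.58 with scaling to the 75th percentile and 0.47 in the submitters' values. On cementoblast replicate 2 this probe was the brightest of the array, where quantile normalization sets the value by rank alone. With the family's level on each array taken off (75th percentile scaling), it lay at 0.40, -0.41 and -0.98 on the osteoblast arrays. Rpl41 and Rplp1, which with this probe are the 3 brightest members, lay at -0.45 and -0.19 on osteoblast replicate 3. Whether the signal of bright probes was limited on the brighter osteoblast arrays was not tested. The other tested probes of Rpl23 differed by 0.39 and 0.13, or by 0.13 and -0.29 with scaling to the 75th percentile, so the probes of this gene did not share a size or, at the 75th percentile, a direction.

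Rpl7a and Rpl24 parted from the family on osteoblast replicate 1. Rpl7a, a large subunit protein, read 99.0, 707 and 777 on the osteoblast arrays and 175, 183 and 235 on the cementoblast arrays. Rpl24, a protein at the subunit interface whose mutation in mice causes the Belly spot and tail phenotype, read 205, 1963 and 2523 and then 444, 463 and 743. Both were lowest on osteoblast replicate 1 by more than the family was. With the family's level on each array taken off, they lay at -1.41 and -1.23 on that array and between -0.05 and 0.70 on the other 5 arrays. The quantile differences were 0.82 for Rpl7a (SE 0.44; adjusted p = 0.875) and 0.64 for Rpl24 (SE 0.33; adjusted p = 0.860). Without osteoblast replicate 1 they were 0.34 and 0.32. Rps6 and Rps7, the latter chosen after its values were seen, also lay low on this array, at -0.83 and -0.95.

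Rpl3l, the paralog of Rpl3 found in heart and skeletal muscle, and the probes of Rpl21 also parted from the family, at signals close to background. Rpl3l read 83.9, 115.9 and 125.1 on the osteoblast arrays and 83.0, 83.7 and 76.6 on the cementoblast arrays, and it was detected on 4 of 6 arrays. Its log2 difference was -0.25 with quantiles and 0.43 with scaling to the 75th percentile, so its direction was not measured at this level. Muscle markers (Acta1, Mylpf, Ckm and others, with Myh4 not detected) were detected at 5 of 6 probes on osteoblast replicates 2 and 3 and at 0 on the other 4 arrays. Rpl3, which lies close to the peptidyl transferase centre, was at 11.64 ± 0.03 in cementoblasts against 11.28 ± 0.18 in osteoblasts (SD, n = 3 each). The groups did not overlap, and the difference was 0.36 (adjusted p = 0.937); with scaling to the 75th percentile it was 0.15. The probes of Rpl21 differed by 0.03 and -0.07 with quantiles and by 0.54 and 0.48 with scaling to the 75th percentile.

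**Figure D4:**
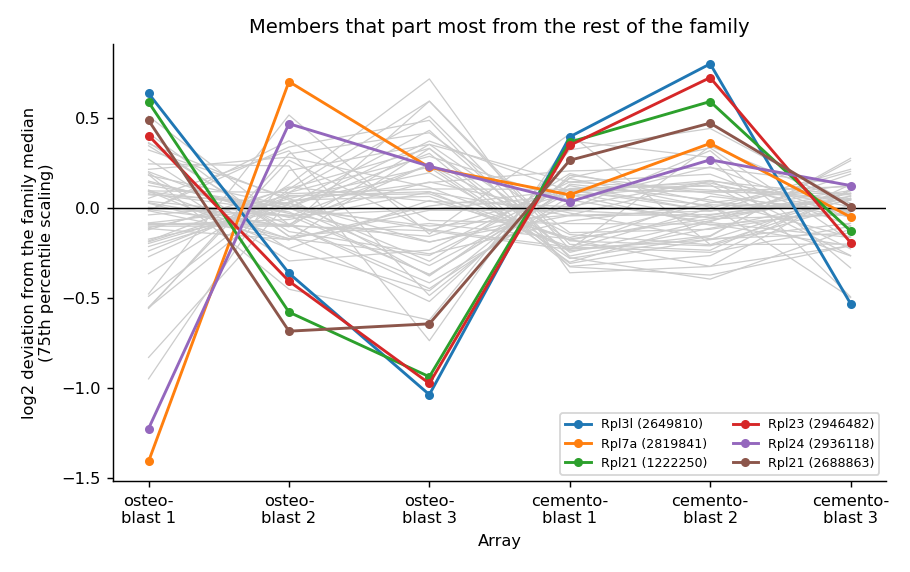
Log2 deviation of each member from the family's median on each array (75th percentile scaling), with the 6 probes of largest SD coloured and the other 56 in grey. Rpl7a and Rpl24 lie at -1.41 and -1.23 on osteoblast replicate 1, and Rpl23, Rpl21 and Rpl3l lie lowest on osteoblast replicates 2 or 3.

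Further large subunit members of known special roles lay on both sides of the family's median. Rpl5, which carries 5S ribosomal RNA and can bind Mdm2, read 1420, 4747 and 5346 on the osteoblast arrays and 1430, 1165 and 1770 on the cementoblast arrays. Its difference was 0.20 with a 95% interval from -0.48 to 0.88, or -0.08 with scaling to the 75th percentile. Rpl38, which in mice is needed for the normal patterning of the axial skeleton through translation of Hox mRNAs, had differences of 0.01 and -0.14 at its probes, or -0.19 and -0.24. Its brighter probe read 3030, 8335 and 13279 in osteoblasts and 2282, 2227 and 4158 in cementoblasts, with overlapping groups. Rpl10, needed for the subunits to join, was the lowest of the members detected on all arrays, with all cementoblast arrays (11.35 to 11.63) below all osteoblast arrays (11.65 to 11.82) in quantile values. Its difference was -0.22 with an interval from -0.76 to 0.33 (adjusted p = 0.988), or -0.48 with scaling to the 75th percentile. Rpl13a, Rpl22 and Rpl4 differed by 0.29, 0.13 and 0.17, or by -0.17, -0.34 and -0.27 with scaling to the 75th percentile, and Rpl35 and Rpl27a by -0.01 and -0.11, or -0.21 and -0.54. Rpl39, which lines the exit tunnel, differed by 0.36, or 0.20; its paralog Rpl39l was at background on all 6 arrays.

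Among small subunit members Rps6, the substrate of the S6 kinases and so a readout of mTOR signalling at the protein level, read 476, 3182 and 5172 on the osteoblast arrays and 1013, 929 and 1575 on the cementoblast arrays. In quantile values it was at 11.23 ± 0.07 in cementoblasts against 10.68 ± 0.29 in osteoblasts (SD, n = 3 each), and the groups did not overlap. The difference was 0.55 (SE 0.26; adjusted p = 0.799), 0.36 with scaling to the 75th percentile and 0.87 in the submitters' values. Rps6 kept the direction of higher cementoblast signal under these scalings but not with scaling to the array median (-0.56) or no scaling (-0.80). There the medians of all tested probes were -0.96 and -1.20, so Rps6 lay above all probes' median both times. With the family's level taken off, Rps6 lay low on osteoblast replicate 1 alone. Rps25, needed for initiation at some internal ribosome entry sites, differed by 0.53 with no overlap of the groups, or by 0.08 with scaling to the 75th percentile. Rps3, at the mRNA entry channel, differed by 0.50 and 0.14 at its probes, or by -0.00 and -0.06.

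Rps27 and Rps27l, paralogs that encode alternative forms of the same small subunit protein, had differences of opposite sign with quantiles and with scaling to the 75th percentile. Rps27 read 1226, 5120 and 6208 in osteoblasts and 1595, 1300 and 2295 in cementoblasts, a difference of 0.34 (adjusted p = 0.961), or 0.13 with scaling to the 75th percentile. Rps27l, which p53 can induce, read 397, 1839 and 3058 in osteoblasts and 366, 325 and 615 in cementoblasts, a difference of -0.14 (SE 0.23; adjusted p = 1.00), or -0.62 with scaling to the 75th percentile, where it had the smallest unadjusted p of all members (0.0979). With quantiles all 3 cementoblast arrays of Rps27l lay below all 3 osteoblast arrays, at 9.73 to 10.00 against 10.01 to 10.07. With no scaling both lay below 0, at -1.03 for Rps27 and -1.77 for Rps27l, where the median of all probes was -1.20. Neither passed the test, and the difference between the paralogs was not tested. Rps19 and Rps14, whose loss in humans causes Diamond-Blackfan anaemia and the anaemia of the 5q syndrome, differed by 0.19 and 0.21, or by -0.02 and -0.05 with scaling to the 75th percentile. Rps20 and Rps4x differed by 0.42 and 0.13, or by 0.20 and -0.03.

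Of the stalk proteins, which recruit elongation factors to the large subunit, Rplp1 read 3951, 15683 and 20513 on the osteoblast arrays and 4097, 3769 and 7284 on the cementoblast arrays. Its difference was -0.08 with an interval from -0.82 to 0.67, or -0.02 with scaling to the 75th percentile, and the groups overlapped. The Rplp0 probe that was tested differed by 0.16, or 0.15, at signals of 90.9 to 212.3 in osteoblasts and 87.8 to 105.7 in cementoblasts. The other Rplp0 probe was detected on 1 cementoblast array, and the Rplp2 probe on no array.

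**Figure D5:**
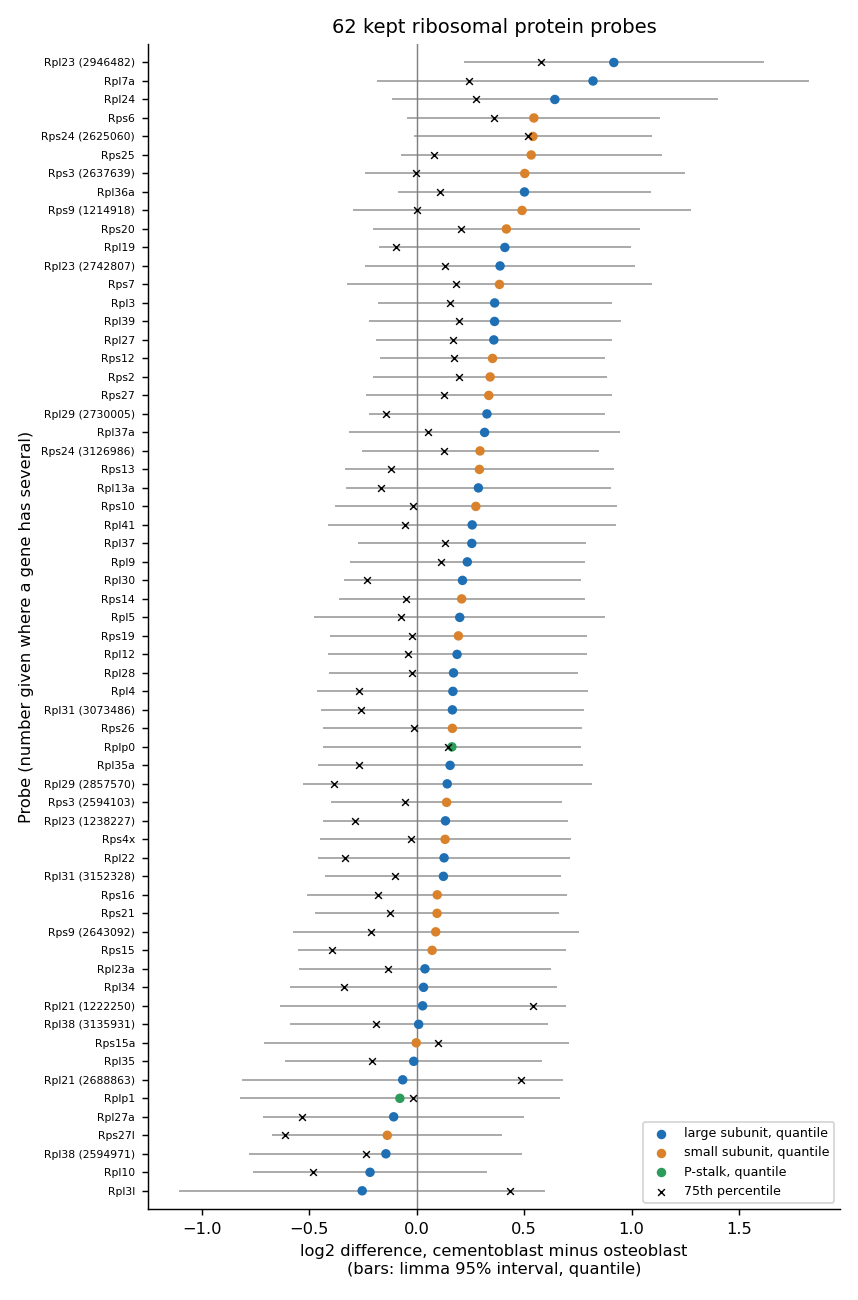
Log2 difference, cementoblast minus osteoblast, of each of the 62 tested probes (dots, coloured by subunit, quantile normalization) with limma 95% intervals (n = 3 per group), and the same difference with scaling to the 75th percentile (crosses). Every interval but that of a Rpl23 probe spans 0, and 53 dots but only 26 crosses lie above 0.

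The TOP motif was set beside the size of the difference as a description, and the difference between the sets was not tested. The brightest tested probe of the 9 genes with the motif exactly at an annotated start had a median quantile difference of 0.15. The range was from -0.01 (Rpl35) to 0.55 (Rps6), or -0.21 and 0.36 for these genes with scaling to the 75th percentile. The 36 matched genes without it there had a median quantile difference of 0.22, with a range from -0.25 to 0.92. The motif began within 10 bases of an annotated start in 33 of the 51 matched genes. The genes without it at the exact start can therefore be TOP genes, and the sets cannot show whether TOP genes differ from others.

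Other genes of the translation machinery, from lists chosen with earlier results of these data known, gave no probe past the test in either direction. Of 6 tested probes for ribosomal genes outside the symbol rule, 4 lay above 0, with a median of 0.18, or 0.00 with scaling to the 75th percentile; Rps3a1, a small subunit gene, had the smallest p at 0.53 (adjusted p = 0.932). Of 28 tested probes for elongation factors and other TOP mRNAs, 23 lay above 0 with quantiles and 9 with scaling to the 75th percentile, with medians of 0.21 and -0.13. Eef1b2, an exchange factor for the elongation factor that brings tRNA to the ribosome, had the smallest p at a probe that differed by 0.87, or 0.42 (adjusted p = 0.347). Its other probes differed by 0.56 and 0.24, or by 0.12 and -0.26. Initiation factor probes had a median of 0.05, or -0.39, over 25 probes, and Eif4ebp1, an inhibitor of translation initiation, differed by -0.74 (adjusted p = 0.726). Ribosome biogenesis probes had a median of 0.08, or -0.09, over 34 probes, and the smallest p was that of a Nop2 probe at -0.64 (adjusted p = 0.849). The other Nop2 probes differed by -0.42 and 0.03, and with scaling to the 75th percentile the 3 probes were at -0.34, 0.18 and 0.79, so the direction of this gene was not settled. The 91 tested probes for mitochondrial ribosomal proteins had a median of -0.12, or -0.29, with 30 above 0 and 21 with scaling to the 75th percentile. The smallest p was that of a Mrpl1 probe at -0.86 (adjusted p = 0.573), or -0.33 with scaling to the 75th percentile. It was detected on 4 arrays and read 84.2, 129.5 and 232.1 in osteoblasts and 84.5, 75.6 and 84.8 in cementoblasts. Other Mrpl1 probes were not tested. Growth signalling probes had a median of -0.15 over 9 and control genes 0.10 over 18, or -0.32 and -0.12, where the smallest p was that of Pdcd4 at -0.50 and of a Ywhaz probe at 0.53. With scaling to the 75th percentile Pdcd4, detected on 3 arrays near background, turned to 0.29 and Ywhaz was at 0.09. Some control probes differed by more with a wider spread, such as those of Actb at 1.06 and 1.01, where the other 3 Actb probes lay between -0.26 and -0.00.

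The probes whose levels over the 6 arrays were most like the members' median (75th percentile scaling) were those of Rassf5, Lrif1, Gapvd1, Pank2 and Psma7, with Pearson r of 0.990 to 0.994 over 6 arrays. The points share their arrays and the scaling, and the median r of 6475 other probes detected on all arrays was 0.56. The members' own r ran from -0.81 to 0.99, with a median of 0.69. Each member is itself part of the members' median, so its r cannot be set directly against that of other probes.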

How the data were processed

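The authors deposited 1 table of mean bead signal (intensity, linear and not normalized between arrays) with a detection p-value per probe and array, per the file headers, and a table of intensity values that they had normalized, for which the submitters' processing notes name lumi. The method of that normalization is not given in the sources used here. Deposited signals were background-corrected from the detection p-values and quantile normalized with neqc (offset 16, limma 3.58.1 in R 4.3.3), and values are on the log2 scale. Every probe that 3 or more of the 6 arrays detected (p under 0.05) was tested by itself with lmFit and eBayes, cementoblast minus osteoblast, with Benjamini-Hochberg adjustment over 11198 probes and a threshold of 0.05. The fit was tested on simulated data. Precision is limited by how many arrays there are, and read depth does not apply. Each sample is a pool of mice, and the labels do not say that pools of different samples share no animal, so p-values measure the spread between these samples, which may be partly technical. A pair of columns named with the number 3 was matched to the samples whose titles carry the number 4 through tissue and replicate number.

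Members were described by probe, since probes of a gene differ in brightness and no probe's level was set against another's. Named genes were the members with the 6 highest and 6 lowest differences among those detected on all arrays, the 6 that departed most from the family, members of known special roles, paralogs, genes whose probes differed in sign, members that were not tested, and the smallest p of each other list. The members and lists were chosen with earlier results of these data known. Alternatives changed the scaling, the background correction, the detection filter, the probe per gene, the variance model, the block and the arrays left out. Background-corrected signal on the linear scale gave the shares. Promoter sequences are from RefSeq (GRCm38.p6). No protein sequence was used here.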

Additional observations from a re-analysis of the deposited data

How the results depend on the processing

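No member passed the test under any of the 20 alternatives, and the smallest adjusted p of a member was 0.0554, for Rpl23 without both osteoblast replicate 1 and cementoblast replicate 3. The members' median difference of 0.20 became -0.022 (26 above 0) with scaling to the 75th percentile, -0.94 (0 above 0) to the array median, -1.18 (0 above 0) with no scaling, 0.023 (34 above 0) to the members' own median and 0.35 in the submitters' values; it was 0.46 with the 75th percentile over probes detected on all arrays, an alternative chosen after seeing the data. Leaving out 1 array at a time gave medians of 0.15 to 0.28. Over all probes the 33 calls became 2 at the 75th percentile, 0 with scaling to the array median, the members' median, the 75th percentile of probes detected on all arrays or none, 17 with no background correction, 11 with no filter, 10 with detection on all arrays, 54 with trend and robust variance and 84 with the title number as a random block (correlation 0.334). Without 1 array they ran from 0 (osteoblast replicate 3 or cementoblast replicate 2 left out) to 196 (cementoblast replicate 3 left out), with 17, 3 and 10 without osteoblast replicates 1 and 2 and cementoblast replicate 1, and 224 without both osteoblast replicate 1 and cementoblast replicate 3; the cause was not tested. With the replicate block the count over all probes was 0 and the members' median stayed at 0.20. Titles of replicates 2 and 3 carry the same number in both groups, 28 and 4. Those of replicate 1 carry 22 in osteoblasts and 27 in cementoblasts. Deviations of arrays with the same replicate number correlated at -0.34, 0.35 and 0.09, and those of other pairs at -0.57 to 0.47. With 3 arrays per group these values cannot decide whether samples were paired, and the main fit did not pair them. The mean share of deposited signal was lower by 0.59 percentage points in cementoblasts (difference -0.59), but higher by 0.762 over the probes detected on all arrays; the share of corrected signal was higher by 2.70, by 2.05 without the 3 brightest members, by 2.99 over tested probes and by 2.81 without the 50 brightest others, all chosen after seeing the data. Of 29 named probes, 21 changed sign with scaling to the array median or none, 12 with the 75th percentile, 10 with the members' median, 5 with the 75th percentile of probes detected on all arrays, 3 in the submitters' values and 2 to 5 without 1 array. Signals near background limit Rpl3l, Rpl21 and Rplp0.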
